A study of Mus musculus with 3 samples.

Results

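Transcription factors of the neural plate border and the neural crest were compared between mutant and wild-type mouse embryoid bodies. The set held 10 genes, taken by the gene name on the array: Msx1, Pax3, Pax7, Tfap2a, Tfap2b, Foxd3, Sox9, Sox10, Ets1 and Mitf. All 10 were on the array, read by 14 of its 39429 probes, and 9 of them were among the 19668 genes that passed the filter on dim probes. Embryoid bodies are floating aggregates of differentiating embryonic stem cells, and these had been kept for 10 days in suspension without LIF, the cytokine that maintains stem-cell self-renewal. One group was wild type. The other, labelled Dido3deltaCT+HADidoNT, made a Dido3 protein cut short at its C terminus and also overexpressed the N-terminal part of Dido with its PHD domain. What drives the added construct, and how many cell clones gave each genotype, is not given in the sources used here. Each genotype had 3 biological replicates, hybridized in pairs of 1 mutant and 1 wild-type RNA on 3 two-colour arrays, with the mutant in Cy3 (green) on arrays 1 and 3 and in Cy5 (red) on array 2. Array 2 is thus both replicate 2 and the array with exchanged dyes, and the difference between it and the other arrays cannot be assigned to replicate or dye.

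The neural crest forms at the border between neural plate and surface ectoderm. Border genes such as Msx1, Pax3, Pax7 and the AP-2 factors Tfap2a and Tfap2b mark the region first, and crest specifiers such as Foxd3, Sox9, Sox10 and Ets1 follow as the cells leave the neural tube and migrate. The cells then become pigment cells, peripheral neurons and glia, and skeleton of the face, with Mitf as the master regulator of pigment cells. Several of these factors also serve elsewhere: Foxd3 in pluripotent cells, Ets1 in endothelium and blood, Sox9 in cartilage, and Pax3 and Pax7 in muscle precursors and dorsal neural tube.

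The probes are 60-base oligonucleotides, and the results below depend on which stretch of a transcript each one reads, so 4 of them are shown. An Ets1 probe, at chr9:32561826-32561885 on the plus strand of mm9, lies in the coding sequence of the DNA-binding ETS domain and is given whole. The other sequences are stretches of 30 bases from the Sox10 probe (chr15:78985518-78985577, minus strand), the brighter Tfap2a probe (chr13:40811044-40811103, minus strand) and the brighter Pax3 probe (chr1:78099294-78099353, minus strand), each with the polyadenylation hexamer AATAAA in capitals.
Ets1 probe: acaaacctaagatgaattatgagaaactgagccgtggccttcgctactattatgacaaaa
Sox10 probe: tccagcgataccttAATAAAgtacgtagct
Tfap2a probe: gttgcccagataAATAAAtatttgatacgc
Pax3 probe: gaatcttctcagaaacaaaacAATAAAaaa
The hexamer, searched on the probe strand alone, was present in 3 of the 14 probes (21.4%) and in 12.6% of all 39429 probes. Of the promoters in the RefSeq table (GRCm38.p6, 250 bases before to 50 after a start), 9 belonged to 6 of the regulators. GC content over 50% together with an observed-to-expected CpG ratio over 0.6 was found in 4 of these 9, and in 33.3% of all promoters in the table.

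Ratios are given per array on the log2 scale, mutant divided by wild type, with mean ± SD over n = 3 arrays. Signals are normalized spot brightness per genotype, in arbitrary units, and were not compared between probes. Sums over marker lists add unlike probes, so the brightest probes weigh most in them. A gene was called when its limma p, adjusted over all 19668 genes by Benjamini-Hochberg, was under 0.05. By that rule 325 genes were called, 249 higher and 76 lower. This fit limited extreme local background values on array 2; without that limit the same correction called 0 genes, and 3020 had an unadjusted p under 0.05. Of spots, 66.5% to 74.8% were well above background in the mutant and 64.8% to 76.0% in wild type. Dido1 itself was read by 4 probes. Those at chr2:180405604-180405663 and chr2:180419747-180419806 rose by 3.03 ± 0.34 and 2.35 ± 0.40 (limma over probes, adjusted p = 0.0310 and 0.0342), the one at chr2:180415861-180415920 fell, at -3.60 ± 0.17 (adjusted p = 0.0310), and the one at chr2:180393086-180393145 was at -0.54 ± 0.93 (adjusted p = 0.494). A probe ratio does not separate the added construct from the endogenous gene.

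None of the regulators passed the test. Over all genes 1.65% were called, and of the regulators 0 of 9 were, with 3 at an unadjusted p under 0.05 (Mitf, Sox10 and Ets1) against 19.9% of all genes. Mitf and Sox10 were lower on all 3 arrays and Ets1 was higher on all 3; over all genes 19.1% were lower and 22.5% higher on every array, 41.6% in all. No regulator reached 2-fold one way on every array, as 3.1% of all genes did upward and 1.08% downward. The other 6 had ratios of both signs. The median over the 9 was -0.40, beside -0.013 over all genes. That is the value of Pax7, which like Foxd3 passed the filter through wild type alone. Over the 7 regulators well above background in both genotypes on every array the median was -0.60, and with the scanner's own log ratio the median over the 9 was -0.86. Per array, the median over the 9 in the reported fit was -0.89, 0.15 and -0.96 on arrays 1, 2 and 3. The median of all genes was 0.026, 0.0053 and 0.021. Counting Tfap2b, which was not tested, 7 of the 10 regulators were lower in the mutant on both arrays 1 and 3, and 7 of the 10 were higher on array 2. The shares of all genes for these counts were not taken, so the counts are not read as a trait of the regulators.

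**Figure D1:**
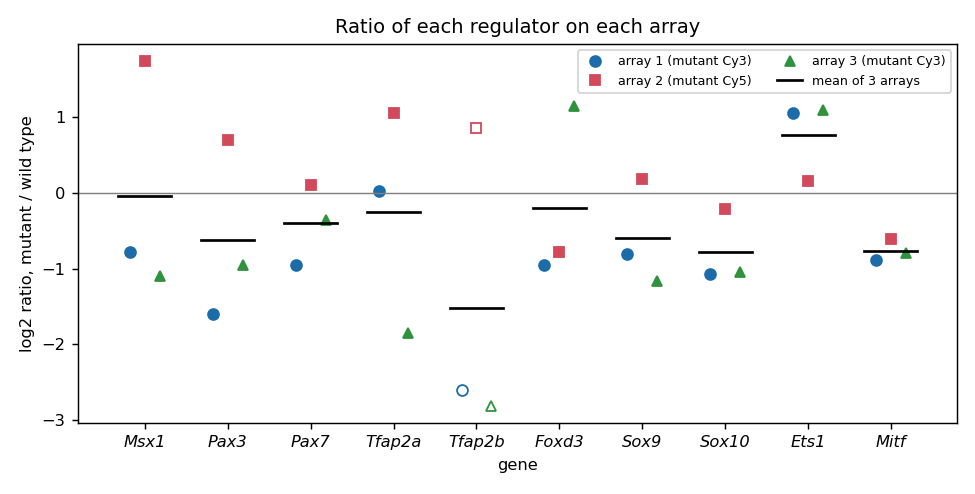
Log2 ratio of mutant over wild type (y axis) for the 10 regulators (x axis) on array 1 (circles), array 2 (squares, dyes exchanged) and array 3 (triangles), with the mean as a black line; open symbols mark Tfap2b, which did not pass the filter. The 3 ratios of Mitf lie closest together, and array 2 lies above both other arrays for 8 of the 10.

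Among the border genes, Msx1, a homeobox factor induced by BMP signalling, changed sign between arrays. Its probe, at chr5:38212305-38212364 (minus strand), had mutant signals of 1141, 2275 and 753 on arrays 1, 2 and 3 and wild-type signals of 1961, 681 and 1607. The mutant was dimmer on arrays 1 and 3 and brighter on array 2, and the genotypes overlapped. The log2 ratios were -0.78, 1.74 and -1.09, a mean of -0.05 ± 1.55 (limma, adjusted p = 0.979). The 95% interval of the mean ran from -1.63 to 1.54. Msx2, its nearest paralog, was steady by comparison, at 0.79 ± 0.09 (adjusted p = 0.109); the difference between the paralogs was not tested.

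Pax3 and Pax7 are paired-box factors that mark the dorsal neural tube and border. The brighter Pax3 probe had mutant signals of 141, 311 and 172 and wild-type signals of 427, 192 and 334. Its log2 ratios were -1.60, 0.70 and -0.96, a mean of -0.62 ± 1.18 (limma, adjusted p = 0.543), so wild type was brighter on arrays 1 and 3 and mutant on array 2. A second Pax3 probe, at chr1:78099476-78099535 and printed in 10 spots, had ratios of -0.63, 0.67 and -0.35 in the same order of signs. It did not pass the filter, as it was well above background in wild type on 2 of the 3 arrays and in the mutant on 2. Pax7 was dim, with mutant signals of 79, 140 and 79 and wild-type signals of 152, 130 and 102. It passed because wild type was well above background on all 3 arrays, while the mutant was so on array 2 alone. Its ratios were -0.95, 0.10 and -0.36, a mean of -0.40 ± 0.53 (adjusted p = 0.477), and its size is limited by the dim mutant signal.

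The AP-2 factors Tfap2a and Tfap2b act early at the border and in craniofacial crest. For Tfap2a the brighter probe gave mutant signals of 573, 1489 and 302 and wild-type signals of 564, 715 and 1091. The ratios were 0.02, 1.06 and -1.85, a mean of -0.26 ± 1.48 (limma, adjusted p = 0.853), with arrays 1, 2 and 3 each differing from the others. Arrays 1 and 3, which share a dye order, lay farther apart for Tfap2a and Foxd3 than for any other regulator. A second Tfap2a probe, at chr13:40829040-40829099 and assigned by the file to another transcript, was well above background on 2 of the 3 arrays in each genotype, with ratios of -0.0043, 0.084 and -0.29, and did not pass the filter. Tfap2b, at chr1:19228555-19228614 (plus strand), had mutant signals of 101, 174 and 83 and wild-type signals of 612, 96 and 583. Its ratios of -2.60, 0.86 and -2.81 (mean -1.52 ± 2.06) were the largest in size on arrays 1 and 3, yet it was not tested, because neither genotype was well above background on every array. The mutant was not well above background on array 1 and wild type was not on array 2, and in each case that was the Cy3 channel.

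For Tfap2b the Cy5 channel was thus the brighter on every array, whichever genotype it held. The unprocessed mean spot intensities were 478, 174 and 627 in red and 104, 100 and 127 in green. After normalization red was also above green on every array for Msx1, Pax3, Pax7 and Sox9, so this held for 5 of the 10 regulators, beside 19.6% of all probes. For Pax7 it did not hold in the unprocessed intensities of array 3, with 82.4 in red and 107.8 in green. Of the 9 that were tested, 4 were higher in red throughout, beside 19.3% of all genes, and none was higher in green throughout (38.4% of genes were one or the other). To describe this, each ratio was split into a genotype part, the average of array 2 with the mean of arrays 1 and 3, and a dye part, the same average of the red over green ratios. The dye part was 1.78 for Tfap2b against a genotype part of -0.92, and 109 of 38615 probes (0.282%) had a dye part of at least that size. Its size depends on the background correction, since green was not well above background on arrays 1 and 2: the scanner's own ratios of mutant over wild type were -5.04, 2.83 and -4.27. It was 1.34 for Msx1, 0.99 for Pax3, 0.99 for Tfap2a and 0.59 for Sox9. The dye part was larger than the genotype part for 7 of the 10 regulators, and for 47.9% of all genes. With array 2 alone in its dye order, this part equally holds any difference of replicate 2 from replicates 1 and 3.

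**Figure D2:**
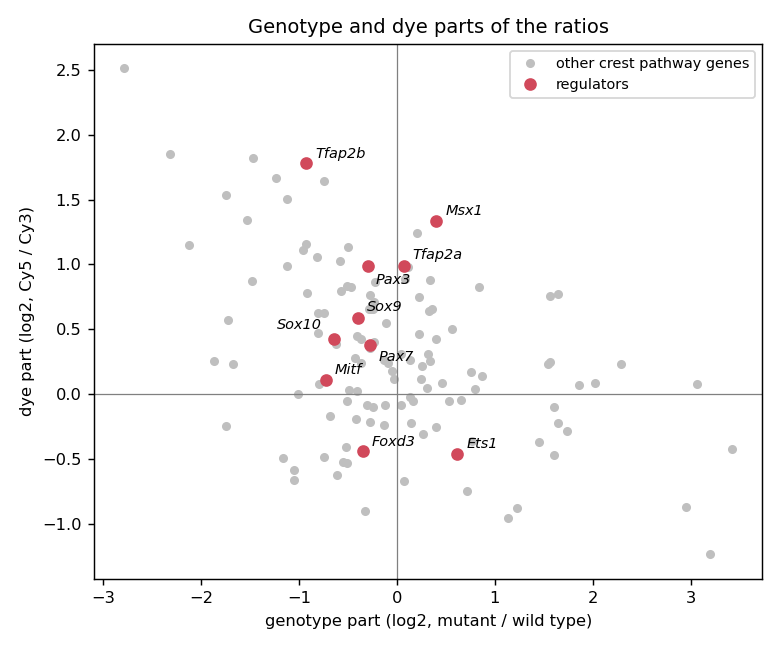
Genotype part (x axis, log2 of mutant over wild type) and dye part (y axis, log2 of Cy5 over Cy3) for the 10 regulators (red, named) and the other genes of the crest pathway lists (grey). Tfap2b and Msx1 have the largest dye parts among the regulators, 1.78 and 1.34, while Mitf lies near 0 on that axis at 0.11.

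Among the crest specifiers, Foxd3, a forkhead factor of premigratory crest and of pluripotent cells, was the one that was lower on arrays 1 and 2 and higher on array 3. Its probe, at chr4:99325170-99325229 (plus strand), had mutant signals of 103, 84 and 439 and wild-type signals of 201, 144 and 199. The mutant on array 3 was the brightest of the 6, and on arrays 1 and 2 the mutant was not well above background. The ratios were -0.96, -0.79 and 1.14, a mean of -0.20 ± 1.17 (limma, adjusted p = 0.861; 95% interval -1.43 to 1.03). Markers of pluripotent cells had the same order of signs: their median ratio over 9 tested genes was -1.94, -2.24 and 0.90 on arrays 1, 2 and 3, and 0 of the 9 passed. Pou5f1, the core pluripotency factor Oct4, was at -2.77, -2.65 and 0.90, and Utf1 at -2.48, -2.28 and 0.87. The summed signal of those 9 markers ranged from 24427 to 218766 in the mutant, with array 3 highest, and from 92222 to 250953 in wild type, with array 2 highest, where the wild-type Foxd3 signal was lowest. Dppa5a alone gave 135665 of the 218766 and 195064 of the 250953. All 9 markers were well above background in both genotypes on every array. The part of these cells in the Foxd3 values was not tested. In bulk samples, fewer cells of a type and less RNA per cell cannot be told apart.

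Sox9 and Sox10 are SoxE factors, the first of early crest and cartilage, the second of migrating crest, glia and pigment cells. Sox9 was read by 1 probe in 10 spots (chr11:112648809-112648868, plus strand). Its mutant signals were 683, 445 and 835 and its wild-type signals 1195, 390 and 1876. Wild type was brighter on arrays 1 and 3, with little difference on array 2, and the ratios were -0.81, 0.19 and -1.17, a mean of -0.60 ± 0.70 (limma, adjusted p = 0.386; 95% interval -1.43 to 0.23). The 10 spots of an array were close to one another: their SD within an array was 0.046, 0.063 and 0.086, and the spots of each array did not reach those of another. On array 1 the single spots ranged from 306 to 815 in unprocessed green intensity, yet their ratios stayed between -0.88 and -0.73. For the dim 10-spot Pax3 probe the SD within an array was larger, 0.20, 0.15 and 0.12, over the 9, 8 and 10 spots without an outlier flag. These spots are technical repeats of 1 hybridization and enter as 1 value.

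Sox10 had mutant signals of 123, 148 and 101 and wild-type signals of 259, 172 and 209. The mutant was the dimmer on every array, and 19.1% of all genes were lower on every array. The ratios were -1.07, -0.22 and -1.05, a mean of -0.78 ± 0.49, or 1.72-fold lower, which did not pass (limma, adjusted p = 0.197; unadjusted p = 0.0304). Its 95% interval, not adjusted for the number of genes, ran from -1.45 to -0.11. Both genotypes were dim but well above background on every array.

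Ets1, an ETS-domain factor of cranial crest, endothelium and blood, was the only regulator higher in the mutant on all 3 arrays. Its brighter probe, at chr9:32564860-32564919 (plus strand), had mutant signals of 4150, 3532 and 3466 and wild-type signals of 1994, 3173 and 1618. For this probe the mutant was the brighter on every array, though on array 2 the pair differed little. Of all genes, 22.5% were higher on every array. The ratios were 1.06, 0.15 and 1.10, a mean of 0.77 ± 0.53, or 1.71-fold, which did not pass (limma, adjusted p = 0.215; unadjusted p = 0.0370). The ETS-domain probe printed above matched it on arrays 1 and 3, at 1.16 and 1.12, but was at -0.45 on array 2, a mean of 0.61 ± 0.91 (limma over probes, adjusted p = 0.440). Its mutant signals were 438, 534 and 520 and its wild-type signals 197, 727 and 240, so on array 2 wild type was the brighter. Endothelium markers, cells in which Ets1 is also active, had a median ratio of 0.90 over 10 genes. On all 3 arrays 7 of them were higher and 1 lower, beside 22.5% and 19.1% of all genes. Flt1 and Kdr, receptors for VEGF, rose by 3.06 ± 0.39 and 2.27 ± 0.59 (adjusted p = 0.0354 and 0.0468). With the mean of a gene's kept probes in place of the brightest, neither passed, at 1.14 and 1.34 (adjusted p = 0.0758 and 0.0828). The summed signal of the 10 markers ranged from 32330 to 59319 in the mutant and from 13937 to 19133 in wild type, with all 10 well above background throughout. Sox17 and Flt1 gave 25201 and 23186 of the 59319 on array 1, and Sox17 had ratios of both signs. Blood cell markers had a median of 0.80 over 8 tested genes, and Cd34, the 1 gene called, rose by 2.34 ± 0.29 (limma, adjusted p = 0.0354). Of the 8, 6 were higher on all 3 arrays, beside 22.5% of all genes, while Gata1 at -0.39 and Klf1 at 0.18 had ratios of both signs. Ptprc and Spi1 were not tested. Summed signals were 38004 to 69649 in the mutant against 13666 to 22973 in wild type. The globin genes Hbb-y and Hbb-bh1 gave 43295 and 21051 of the 69649 on array 1. The part of endothelium and blood cells in the Ets1 values was not tested.

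Mitf had the closest agreement between arrays. Its brighter probe, at chr6:97971229-97971288 (plus strand), had mutant signals of 1708, 1070 and 1356 and wild-type signals of 3161, 1638 and 2344. Wild type was the brighter on every array, although the highest mutant value was above the lowest wild-type value. The ratios were -0.89, -0.61 and -0.79, a mean of -0.76 ± 0.14, or 1.70-fold lower, which did not pass (limma, adjusted p = 0.121; unadjusted p = 0.0104). The 95% interval, not adjusted for the number of genes, ran from -1.25 to -0.28. A second Mitf probe, at chr6:97968501-97968560, was well above background on 2 arrays in wild type and on 1 in the mutant, and did not pass the filter, with ratios of -0.059, -0.12 and -0.27.

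**Figure D3:**
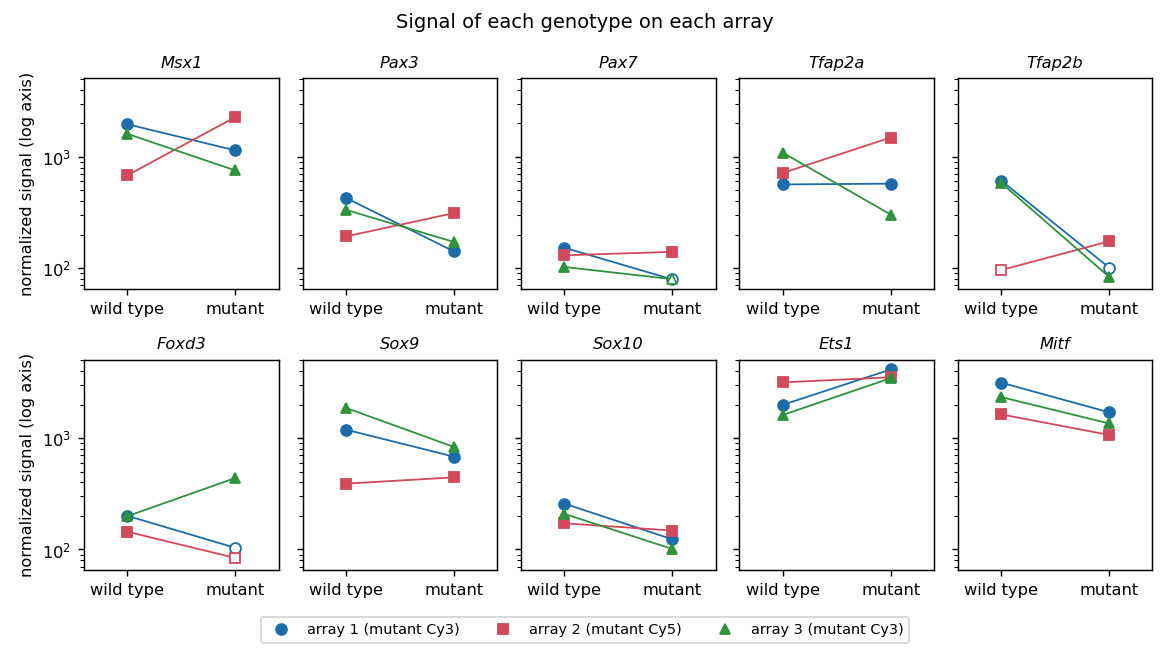
Normalized signal (y axis, logarithmic, arbitrary units) of wild type and mutant for each regulator, with a line joining the 2 RNAs of an array and open symbols where the signal was not well above background. Wild-type signals of Msx1, Pax3, Tfap2b, Foxd3, Sox9, Sox10 and Mitf are lowest on array 2. For Sox10 and Mitf wild type is the brighter on every array, and for the brighter Ets1 probe the mutant is.

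The signals of each genotype were also set side by side over the arrays. The lowest of the 3 wild-type signals was on array 2 for 7 of the 10, Msx1, Pax3, Tfap2b, Foxd3, Sox9, Sox10 and Mitf. The highest of the 3 mutant signals was on array 2 for 6 of the 10, Msx1, Pax3, Pax7, Tfap2a, Tfap2b and Sox10. The shares of all genes for these signal counts were not taken, so they are not read as a trait of the regulators. Array 2 had a ratio above both other arrays for 8 of the 10 regulators, beside 39.9% of all genes. Neural progenitor markers also differed on array 2: their median ratio was -3.38, -0.50 and -4.09, and 0 of 10 passed. Of these 10, 8 were lower on all 3 arrays and 8 had an unadjusted p under 0.05 in limma. The shares of all genes were 19.1% and 19.9%. Dbx1 was at -2.85 ± 1.33 and Sox3 at -2.18 ± 1.14 (limma, adjusted p = 0.0741 and 0.0930). Of the 10 markers, 3 passed the filter through 1 genotype alone, Dbx1 and Pax6 through wild type and Olig3 through the mutant. The mutant was well above background on 2 of the 3 arrays for Dbx1, and the size of its ratio is limited by that dim signal. The summed signal of the 10 markers in wild type was 39436 and 48259 on arrays 1 and 3 but 6804 on array 2, while in the mutant it was 3778, 4326 and 6425. Between 8 and 10 of the 10 markers were well above background per genotype and array. The part of neural cells in the regulators' values was not tested.

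With array 2 left out, 6 of the 9 regulators were called, but both remaining arrays then carry the mutant in Cy3, and dye and genotype cannot be told apart. Sox9, Sox10, Pax3, Mitf and Msx1 were lower, at -0.99, -1.06, -1.28, -0.84 and -0.94 (limma, adjusted p = 0.0297, 0.0210, 0.0278, 0.0310 and 0.0306), and Ets1 was higher at 1.08 (adjusted p = 0.0207). In that fit 5170 genes were called in all, beside 325 with all 3 arrays. With array 1 or array 3 left out instead, 0 genes were called. With a dye term in the model, array 2 is fitted exactly and the spread is that between arrays 1 and 3 alone. Mitf was at -0.73 in that fit.

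**Figure D4:**
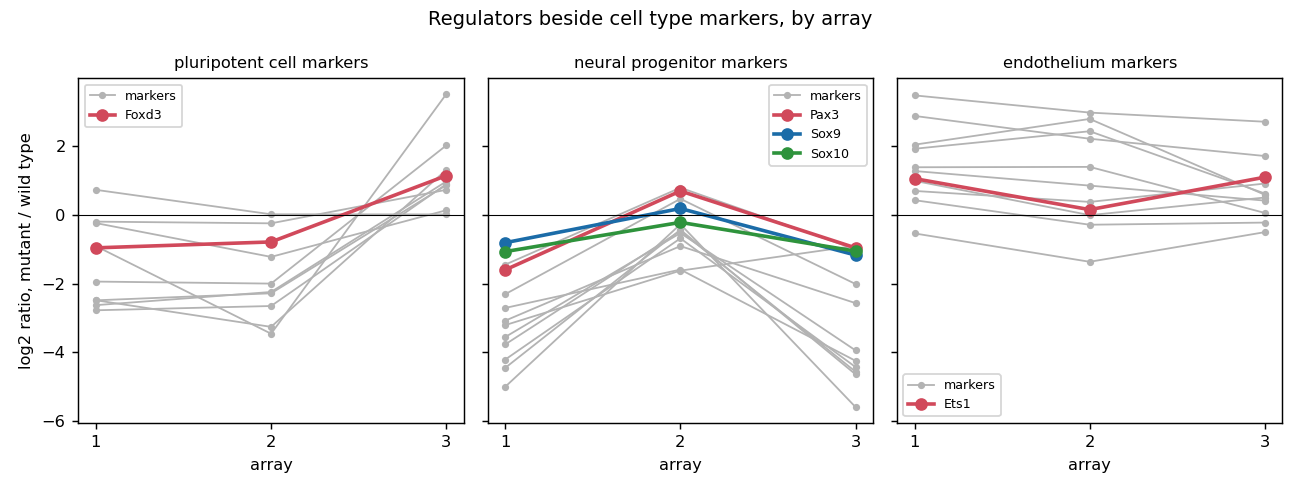
Log2 ratio of mutant over wild type (y axis) on arrays 1, 2 and 3 (x axis) for markers of pluripotent cells, neural progenitors and endothelium (grey) with Foxd3, with Pax3, Sox9 and Sox10, and with Ets1 (coloured); a line joins the values of 1 gene and the arrays have no order. Foxd3 and every pluripotency marker drawn except Nanog are higher in the mutant on array 3 alone, and every neural progenitor marker except Sox2 has its highest ratio on array 2.

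Other genes of crest development were described through 8 lists holding 143 genes besides the regulators, 117 of them tested. Of these, 7 rose and 1 fell, beside 1.27% higher and 0.386% lower over all genes. Among border and specification genes 0 of 24 passed, and 4 were higher and 5 lower on all arrays, with a median of -0.25. Of all genes, 22.5% were higher and 19.1% lower on all arrays. The zinc-finger gene Zic5 was at -1.96 ± 0.99 (limma, adjusted p = 0.0922). Among crest-inducing signals 0 of 9 passed, and 3 were higher and 3 lower on all arrays, with a median of -0.82. The 3 lower, named after their values were seen, were Dll1, Fgf17 and Jag1, at -1.91, -0.82 and -0.95. Bmp4, a border-inducing ligand, was at 2.64, 2.52 and 1.49, a mean of 2.21 ± 0.63 that lay just outside the threshold (adjusted p = 0.0503), and Notch1 was at 3.61 ± 1.43 (adjusted p = 0.0585).

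Among receptors and adhesion molecules of migrating crest, 2 of 20 rose and none fell, with a median of 0.13. The semaphorin and VEGF co-receptors Nrp1 and Nrp2 were higher by 3.56 ± 0.75 and 1.84 ± 0.28 (limma, adjusted p = 0.0357 and 0.0430). Wild type was well above background on 2 of the 3 arrays for Nrp2, which passed the filter through the mutant, and the Nrp2 ratio ran from 1.24 to 3.58 over the settings tried. Both are also expressed in endothelium, of whose 10 markers 2 were called higher, beside 1.27% of all genes. The part of endothelium in the Nrp1 and Nrp2 values was not tested. Of the 11 melanocyte genes tested, 1 rose and 1 fell, with a median of -0.56. Slc24a5, a melanosome ion exchanger, fell, at -1.75 ± 0.34 (adjusted p = 0.0470), and Trpm1, a channel gene under the control of Mitf in pigment cells, rose by 3.24 ± 1.01 (adjusted p = 0.0481), against the sign of Mitf. The pigment enzymes Dct and Tyr, named after their values were seen, were at -1.79 ± 2.40 and -0.56 ± 0.64 (limma, adjusted p = 0.367 and 0.387). Both changed sign on array 2, at 0.43 and 0.041, so red was above green on every array. Of the 11 genes, 2 were higher and 4 lower on all 3 arrays, beside 22.5% and 19.1% of all genes. The other 5 had ratios of both signs.

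Of 10 Schwann and glial genes, Pmp22, a myelin protein also made by many other cells, rose by 1.99 ± 0.50 (limma, adjusted p = 0.0484), and the median was -0.15. Foxd3, described above, is one of the 10. Of 15 autonomic and sensory neuron genes, Hand2, a factor of sympathetic neurons and of the heart, rose by 3.04 ± 0.33 (adjusted p = 0.0354), and the median was -0.49. Of 18 craniofacial and cartilage genes, Col11a2, a cartilage collagen chain, and Hapln1, a link protein of the matrix, rose by 1.83 ± 0.34 and 1.64 ± 0.32 (adjusted p = 0.0453 and 0.0492), and the median was -0.076. None of the 19 tested paralogs passed, with a median of -0.36; the ETS gene Fli1 and the Mitf relative Tfec were at 1.72 ± 0.47 and 1.48 ± 0.36 (adjusted p = 0.0533 and 0.0554). On all 3 arrays 1 of the glial genes was higher and 4 were lower, and of the neuron genes 3 and 5. Of the cartilage genes 4 were higher and 1 lower on all 3 arrays, and of the paralogs 5 and 7. The shares of all genes were 22.5% and 19.1%. Surface ectoderm markers had a median of 0.11 over 10 genes and muscle and paraxial mesoderm markers -0.14 over 4, with 0 called in either.

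These list calls did not hold in every setting. With array 1 or array 3 left out, with the local background not limited, with no filter or with the authors' deposited values, 0 of the list genes passed in limma. Over 18 settings Nrp1 and Hand2 passed in 13, Col11a2 in 12, Slc24a5 and Trpm1 in 10, Pmp22 in 9 and Hapln1 in 8, and Nrp2 passed in 12 of 17, with no change of sign; the highest adjusted p of each lay between 0.207 for Hand2 and 0.314 for Nrp2.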

How the data were processed

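The deposited scanner files hold mean spot and median local background intensity per channel, made with Agilent Feature Extraction 10.7.3.1 on an mm9 design, per the file headers. A log10 ratio of red over green, and flags of 0 or 1 per spot, stand beside them in the deposited files. Log2 ratios come from a further table of the authors; the submitters' processing notes name limma. Against the scanner ratios of 10742 bright spots its slopes were 0.91, 0.93 and 0.97 with the sign of mutant over wild type, and its column medians were -0.01, 0.02 and -0.01; how it was centred and background-corrected is unknown.

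In R 4.3.3 with limma 3.58.1, local background was limited to 100 units (25 spots of array 2 exceeded it, 0 on the others), then normexp (offset 50) and loess within each array were applied. Spots flagged as outliers and control spots were dropped, and repeat spots were averaged. Probes were kept with at least 1 genotype well above background on all 3 arrays (25497 of 39429), and the brightest stood for its gene. Signals are after loess and Aquantile scaling. Symbols came from RefSeq accessions for 27234 probes, symbols for 3576, synonyms for 565, and the file for 8054. The mean ratio was set against 0 (limma lmFit, eBayes; two-sided); 3 arrays limit the precision. The replicate number pairs the RNAs of an array, so the ratio is the paired analysis. Median spot intensity was 150 to 288 units over a local background of 36 to 40, and 0 spots were saturated. RNA was amplified from 1 ug, with 300 ng of cRNA per dye, per the labels.

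On simulated data with the spread of these 19668 genes, 200 genes were shifted, 100 by a log2 of 1 and 100 by 2. Of them 0 and 0 passed the adjusted threshold, while 80 and 92 had an unadjusted p under 0.05 in limma. Their mean estimates were 1.06 and 1.99. In the real data 19.9% of genes had an unadjusted p under 0.05 and 325 were called. The adjusted threshold depends on that share, so the simulation does not measure what the test could find here. The members, the lists and the limit on background were chosen with earlier results of these data known. Named genes are all regulators, Dido1, and per list the called genes (at most 4 by size) or else the 2 with the smallest p, as far as described; exceptions are marked. Settings tried were other background, normalization, filter and probe rules, a dye term, separate channels, an intensity trend, each replicate left out, the authors' values and a threshold of 0.1.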

Additional observations from a re-analysis of the deposited data

How the results depend on the processing

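The count of regulators called stayed at 0 except with a dye term, where it was 1, and ranged from 0 to 6 with a replicate left out. The count over all genes was 0 with the local background not limited (3020 at an unadjusted p under 0.05 in limma), 0 without a filter (4831) and 0 with the authors' deposited values (3838). It was 733 with an offset of 16, 769 with the scanner's log ratio, 2534 with a dye term, 675 with separate channels and no replicate block, 602 with an intensity trend and 1352 at a threshold of 0.1. With a replicate left out it ranged from 0 to 5170. The count of crest list genes, 8 in the reported fit, was 0 with the local background not limited, without a filter and with the authors' values. It was 4 with a limit of 200 units, 4 without background correction, 13 with an offset of 16, 5 with the mean of a gene's probes, 29 with a dye term and 17 at a threshold of 0.1, and 0 to 50 with a replicate left out. Among regulators, Foxd3 turned to 0.045 with the local background not limited, Msx1 to 0.030 with scaling between arrays and to 0.40 with a dye term, and Tfap2a to 0.071 with a dye term. With a replicate left out, Foxd3 ranged from -0.87 to 0.18, Msx1 from -0.94 to 0.48 and Tfap2a from -0.92 to 0.54. Sox9, Sox10, Pax3, Pax7, Mitf and Tfap2b were below 0 and Ets1 above 0 in every setting that gave them a value, but their sizes moved: Sox10 ranged from -1.49 to -0.56, Pax7 from -1.45 to -0.13, Pax3 from -1.28 to -0.13, Sox9 from -0.99 to -0.31, Tfap2b from -2.71 to -0.87, Mitf from -0.86 to -0.68 and Ets1 from 0.61 to 1.08. With the scanner's log ratio Sox10 was at -1.49, Pax7 at -1.45 and Foxd3 at -1.49. The cause of these shifts was not tested beyond the number of arrays or genes each setting leaves. Dim signal limits Pax7, Foxd3, Tfap2b and Sox10.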
